A study of Arabidopsis thaliana with 27 samples.

Results

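The transcriptome of hfr1-101 mutant seedlings of Arabidopsis thaliana after 25 h of low red to far-red light (LRFR), a light treatment that mimics vegetational shade, was compared with that of the same mutant kept in high red to far-red light (HRFR). The libraries were taken by the genotype and light treatment given in the sample labels, with no measured value used, which gave 3 LRFR 25 h and 3 HRFR libraries, 6 of the 27 in the series. Every library was made from pooled whole seedlings 7 days old at harvest and grown in long days, and the LRFR 25 h seedlings were moved to LRFR on the day before harvest so that all groups were collected at the same time of day. hfr1-101 carries a lesion in LONG HYPOCOTYL IN FAR-RED 1 (HFR1) that the study lists as a point mutation (deletion). The other groups used here are hfr1-101 after 1 h of LRFR, the wild type Col-0 in HRFR and after 25 h of LRFR, and pif457, a pif4-101 pif5-3 pif7-1 triple mutant without PHYTOCHROME INTERACTING FACTOR 4, 5 and 7, in the same lights, with 3 libraries in each group. Each mutant is represented by the stated alleles only.

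Phytochrome B (phyB) is the main sensor of the red to far-red ratio. In sunlight active phyB restrains the PIFs, which are basic helix-loop-helix (bHLH) transcription factors that bind the G-box CACGTG and the related PIF-binding element CACATG. In shade phyB is inactivated, PIF7, PIF4 and PIF5 act on genes of auxin synthesis and cell elongation, and HFR1 is itself among the genes they induce. HFR1 is an atypical HLH protein that does not bind these elements but forms heterodimers with PIFs and keeps them from DNA, so it works as a brake that builds up while shade lasts. The 25 h libraries of hfr1-101 therefore address what prolonged shade does to the transcriptome of seedlings in which this brake is mutated.

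Upstream windows of 5 genes are shown because their transcripts are among those the comparison turns on and because the G-box is the element these factors bind. They were read from the RefSeq assembly TAIR10.1 and are written 5′ to 3′ on the strand of the gene, with CACGTG in capitals. The HFR1 window spans chr1:468798-468957 on the minus strand, 1077 to 918 bases before the annotated gene start. The PIL1 window is chr2:19298934-19299093 on the minus strand (1235 to 1076 bases before the start), the ATHB2 window chr4:9446201-9446360 on the plus strand (2913 to 2754 bases before the start), the CKX5 window chr1:28319002-28319161 on the minus strand (786 to 627 bases before the start) and the LHCB1.4 window chr2:14524447-14524606 on the plus strand (the 160 bases before the start). No window overlaps an annotated gene.
HFR1: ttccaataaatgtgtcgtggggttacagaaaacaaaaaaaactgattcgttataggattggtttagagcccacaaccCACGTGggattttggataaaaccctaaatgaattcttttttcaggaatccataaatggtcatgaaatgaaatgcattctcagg
PIL1: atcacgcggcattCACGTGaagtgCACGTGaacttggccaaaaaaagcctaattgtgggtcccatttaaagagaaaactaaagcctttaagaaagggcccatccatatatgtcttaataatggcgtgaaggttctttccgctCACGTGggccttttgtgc
ATHB2: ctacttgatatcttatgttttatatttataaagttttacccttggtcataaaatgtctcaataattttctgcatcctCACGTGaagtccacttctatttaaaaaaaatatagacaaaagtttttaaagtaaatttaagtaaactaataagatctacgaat
CKX5: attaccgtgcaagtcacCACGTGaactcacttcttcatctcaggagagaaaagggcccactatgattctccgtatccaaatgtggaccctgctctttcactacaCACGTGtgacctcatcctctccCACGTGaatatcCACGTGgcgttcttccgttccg
LHCB1.4: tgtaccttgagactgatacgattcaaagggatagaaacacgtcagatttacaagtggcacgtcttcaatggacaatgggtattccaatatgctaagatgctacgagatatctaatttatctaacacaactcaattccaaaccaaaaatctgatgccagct
Each window was placed where the 3000 bases before the start held the most CACGTG. Its presence in a window was therefore set by this choice. Where neither element was found, the last 160 bases are shown. Placed in this way, the PIL1 window holds 3 G-boxes and the CKX5 window 4, while HFR1 and ATHB2 have 1 each in the part shown. LHCB1.4, an antenna gene that fell in LRFR, has neither CACGTG nor CACATG in the 3000 bases before its start, and the same holds for FLOWERING LOCUS T, which rose and whose window is not shown. These single genes do not stand for the rest. Within 3000 bases CACGTG was found before 33.5% of the protein-coding genes that fell, 42.4% of those that rose and 33.3% of all those tested. A match describes these letters only, and binding was not measured in these libraries.

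The hfr1-101 libraries held 29867207 to 33111064 reads counted in genes in HRFR and 29688435 to 34863803 after 25 h of LRFR, and the shallowest of the 27 libraries held 24857067. Levels are CPM, the reads of a gene as scaled to a common library size with edgeR's TMM factors, and are not corrected for gene length. Changes are log2 fold changes (log2FC) from edgeR's quasi-likelihood F-test on one fit of all 27 libraries, given with their standard error (SE, n = 3 libraries per group), and p-values are adjusted by the Benjamini-Hochberg method over the 20887 genes tested. A gene is said to have risen or fallen when its adjusted p was below 0.05 and its log2FC beyond 0.6 in either direction. Replicate 1 of Col-0 in HRFR and replicate 1 of Col-0 after 25 h of LRFR stood apart from the other libraries of their groups, with scores of -32.1 and -38.5 on the first axis of within-group deviations on which the other libraries lay between -16.3 and 23.5. This touches the comparisons with Col-0 directly and is given there with and without these libraries. Through the spread estimated over all 27 libraries they also enter the p-values of the other comparisons. With only the groups compared in the fit, 725 genes rose and 702 fell in hfr1-101 after 25 h of LRFR. The counts from such a fit against pif457 are given with that comparison. The labels call the libraries replicates, and the methods of the study call its RNA-seq replicates biological. Nothing used here says whether they came from separate cultures. The p-values therefore rest on the spread between these samples and cover no further source of variation. The setting for strand in the counting is not given in the sources used here. Reads of CKX5, AT3G21320, IAA5, PIF7, BCAT4, IMD1, TT4, F3H, TT19, MYB11, PORB, BOA, COR15B, SPL4, BRC2, DIN10, GDH1, BCAT2, ASN1, PPDK, ARR6, CKX6, XTH15, TCH3, RNR2A, SHN2, GDPD6, AT1G77960 and BGLU47 could therefore include reads of a gene that overlaps them on the opposite strand.

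After 25 h of LRFR, 700 genes rose in hfr1-101 (3.35% of those tested) and 681 fell (3.26%). The counts of list members given below are to be read beside these 2 shares. The genes that rose had a median log2FC of 0.94 and those that fell a median of -0.87, beside a median of 0.00 over all genes tested. Larger changes were mostly increases: 65 genes rose by more than 2 on the log2 scale and 25 fell by as much, and beyond 3 the counts were 27 and 3. Of the 1381 genes that passed, 1352 had no overlap between the 3 LRFR 25 h and the 3 HRFR libraries, but 20.1% of all tested genes lay wholly higher and 18.3% wholly lower in this way, so the absence of overlap alone separates few genes from the rest. Increases beyond 4 on the log2 scale included those of FLP1, PIL1, AT5G44440, FLOWERING LOCUS T, ST2A, IAA29 and CKX5. LHCB1.4, which encodes a chlorophyll a/b-binding protein of the photosystem II antenna, was among the abundant transcripts that fell.

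HFR1 itself (AT1G02340, chromosome 1, 465616 to 467880, minus strand) was transcribed in the mutant and responded strongly. Its level was 20.3, 19.5 and 19.6 CPM in the HRFR libraries and 226, 190.1 and 218 CPM after 25 h of LRFR, a 10.7-fold rise with no overlap (log2FC 3.41 ± 0.16 SE, adjusted p = 2.29e-13). Its mean in Col-0 was 15.6 CPM in HRFR and 142 CPM after 25 h. A small lesion need not lower the transcript, so this level does not check the genotype label. In pif457 it reached 17.9, 15.2 and 15.1 CPM after 25 h.

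**Figure D1:**
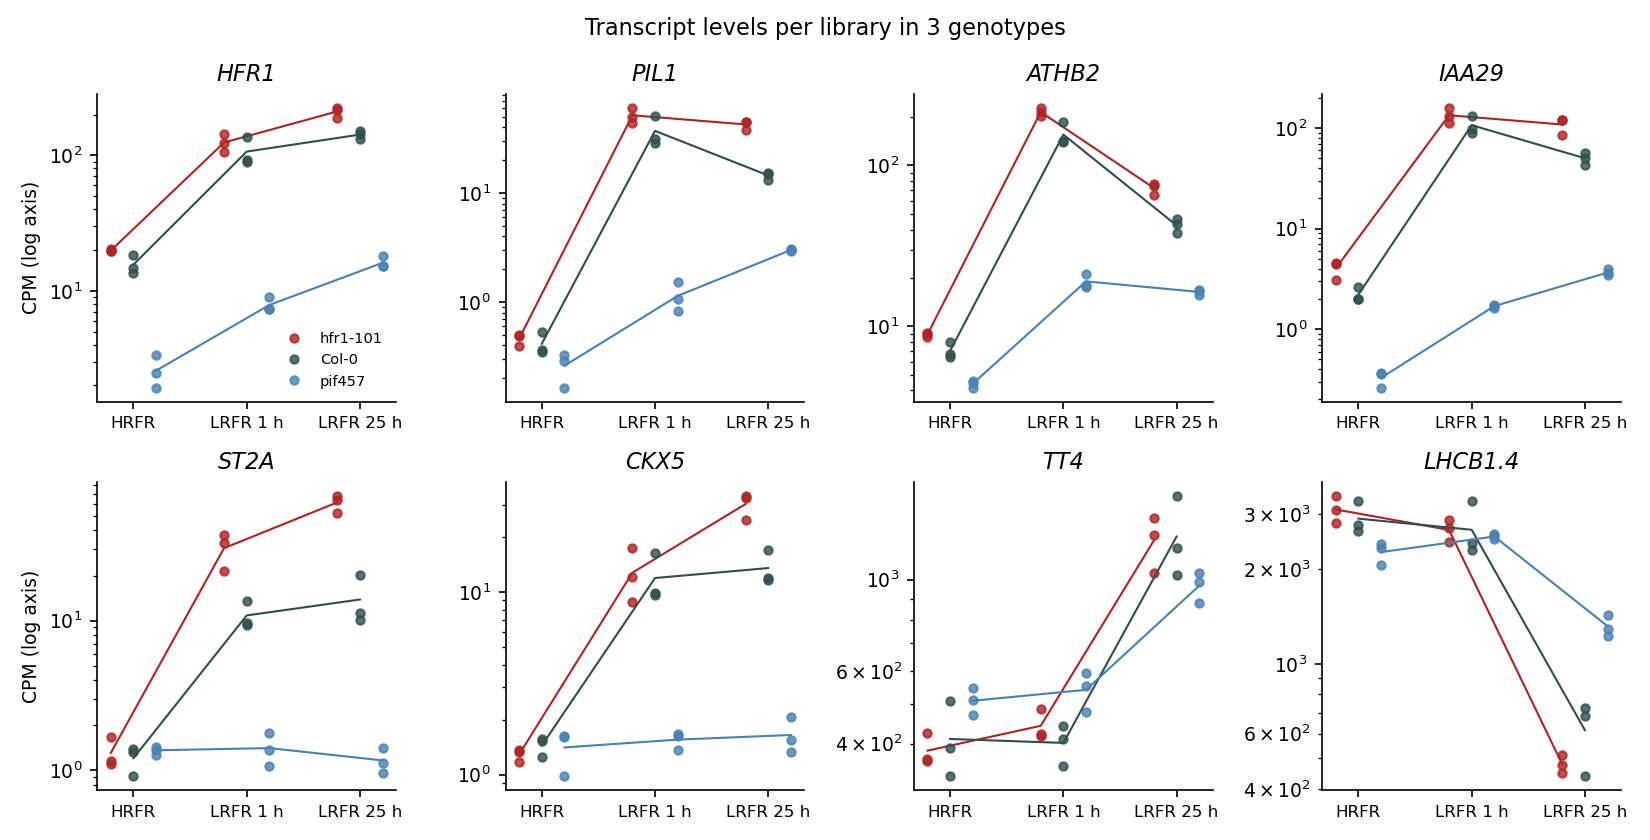
Levels of 8 genes in every library of the 3 genotypes, in CPM on a log axis, against the light treatment, with points for libraries and lines through group means (n = 3). In hfr1-101 after 25 h of LRFR, HFR1 lay between 190 and 226 CPM against 19.5 to 20.3 CPM in HRFR, and LHCB1.4 lay between 449 and 511 CPM against 2799 to 3421 CPM.

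PIL1, a close bHLH relative of the PIFs that is used as a marker of shade, was nearly silent in HRFR at 0.487, 0.499 and 0.395 CPM and reached 44.9, 38.1 and 44.6 CPM after 25 h (log2FC 6.51 ± 0.24 SE, adjusted p = 4.51e-15). ATHB2 (HB-2 in the annotation), an HD-ZIP II transcription factor and classical shade gene, stood at 8.64, 9.12 and 9.02 CPM in HRFR and at 77.2, 65.9 and 74.1 CPM after 25 h (log2FC 3.02 ± 0.11 SE, adjusted p = 4.51e-15). Neither gene showed any overlap between the lights. Of the 10 HLH factors and inhibitors of the shade pathway that were tested, 5 rose and 0 fell, with a median log2FC of 0.72. The others that rose were PRE5 (log2FC 1.55), PRE1 (log2FC 0.71, call lost without hfr1-101 HRFR replicate 1 at 0.59) and KDR (log2FC 0.67, call lost without hfr1-101 HRFR replicate 1 or hfr1-101 LRFR 25 h replicate 3 at 0.58 to 0.6), HLH proteins without a DNA-binding basic region that favour cell elongation. PAR1 and PAR2, HLH inhibitors of the same kind as HFR1, had log2FC of 0.51 and 0.22 and did not pass. Among 5 HD-ZIP II shade genes, 3 rose and 0 fell (median log2FC 1.63), the others being HAT2 at 1.63 and ATHB4 (HB4) at 1.92.

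The genes for the PIFs themselves moved less. Of 7 tested, PIF8 rose (log2FC 0.7), while PIF7, the main PIF of the early shade response, fell from a mean of 54.8 to 32.4 CPM (log2FC -0.76) and PIF4 fell from 114 to 73.5 CPM (log2FC -0.63, call lost without hfr1-101 HRFR replicate 2 at -0.58). PIF5 stayed within the fold threshold at log2FC -0.23, and the median over the 7 was -0.23. PHYB was the 1 of 10 phytochrome and phytochrome partner genes to rise, from 88.5, 102 and 101 CPM to 212, 213 and 214 CPM (log2FC 1.13 ± 0.08 SE, adjusted p = 2.67e-10), and the list had a median of 0.15. Of 16 genes of the COP1, SPA, HY5 and B-box (BBX) group, whose COP1 and SPA proteins mark HFR1 and other factors for degradation, BBX32 (log2FC 1.18), BBX16 (0.7) and BBX18 (0.61, call lost without hfr1-101 HRFR replicate 3 or hfr1-101 LRFR 25 h replicates 2 or 3 at 0.58 to 0.59) rose and BBX22 fell (-0.72). COP1, the E3 ligase of this group, had a mean of 57.7 CPM in HRFR and 64.3 CPM after 25 h (log2FC 0.16, adjusted p = 0.0825).

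Auxin genes rose at several steps of the pathway. YUC8, a flavin monooxygenase of the last step of indole-3-acetic acid synthesis, stood at 2.89, 3.397 and 2.87 CPM in HRFR and 24.6, 19.4 and 23.5 CPM after 25 h (log2FC 2.88 ± 0.21 SE, adjusted p = 9.74e-10), with no overlap between the lights. YUC9 and YUC2, which encode the same enzyme activity, rose by log2FC of 2.38 and 1.39, whereas TAA1, the aminotransferase of the step before, fell from 12.3, 12.3 and 13.1 CPM to 6.43, 7.29 and 6.96 CPM (log2FC -0.87). These 4 were the ones that passed among 11 synthesis genes, whose median log2FC was 0.41. Of 8 genes that inactivate auxin, GH3.3, GH3.5 and GH3.6 rose (log2FC 1.22, 1.13 and 0.97), and they encode enzymes that conjugate auxin to amino acids. Of 16 transport genes, the efflux carrier PIN3 (0.7), PIN5 (0.99) and the kinase PID (1.09) rose.

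The early auxin-response families rose without exception in direction among the members that passed. IAA29, which encodes an Aux/IAA repressor, was at 3.07, 4.53 and 4.49 CPM in HRFR and at 119, 85.1 and 121 CPM after 25 h (log2FC 4.76 ± 0.19 SE, adjusted p = 1.04e-14). Of 27 Aux/IAA genes, 8 rose and 0 fell (median 0.31), and after IAA29 the largest were IAA5 (2.62), IAA34 (2.2) and IAA19 (1.67). Of 25 SAUR genes, small auxin-induced RNAs linked to cell expansion, 16 rose and 0 fell (median 1.1), led by SAUR22 (4.04), SAUR10 (3.5), SAUR23 (3.23) and SAUR19 (2.58). SAUR19 to SAUR24 are near-identical copies, so their individual values are uncertain.

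Genes of other hormone pathways changed as well. Among cytokinin genes, 2 inactivation genes rose and 4 type-A response regulators fell. CKX5, a cytokinin oxidase that degrades the hormone, was at 1.37, 1.17 and 1.33 CPM in HRFR and at 33.5, 24.8 and 32.5 CPM after 25 h (log2FC 4.55 ± 0.26 SE, adjusted p = 1.72e-11), and CKX6 rose as well (0.63, call lost without hfr1-101 HRFR replicate 2 or hfr1-101 LRFR 25 h replicate 2 at 0.53 to 0.6). The type-A response regulators ARR5 (-0.72), ARR6 (-0.84), ARR7 (-0.89) and ARR15 (-1.6), which cytokinin induces, fell, and over the 15 cytokinin genes tested the median was -0.30 with 2 up and 4 down.

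Of 21 brassinosteroid genes 5 rose and 0 fell (median 0.29). They were the bHLH genes BEE1 (2.49), BEE3 (1.33) and BIM1 (0.68), the synthesis gene BR6OX2 (0.77) and the inactivation gene BAS1 (0.65, call lost without hfr1-101 HRFR replicate 3 or hfr1-101 LRFR 25 h replicates 1 or 3 at 0.56 to 0.59). In the gibberellin list 4 of 21 rose and 1 fell: GA20OX3 (3.3) and GA20OX2 (1.42) for the penultimate synthesis steps and the DELLA repressors RGL2 (0.66) and RGL1 (0.62, call lost without hfr1-101 HRFR replicate 1 or hfr1-101 LRFR 25 h replicates 1 or 3 at 0.49 to 0.57) rose, while GA3OX1, for the activating step, fell (-1.11). The ethylene precursor synthases ACS8 (2.98) and ACS4 (2.49) were the 2 of 13 ethylene genes that rose. Of 12 genes of abscisic acid and water status, NCED3 (1.62), CYP707A2 (1.01, call lost without hfr1-101 HRFR replicates 2 or 3 or hfr1-101 LRFR 25 h replicates 2 or 3 at 0.73 to 1.07), HB-12 (0.86) and HB-7 (0.65, call lost without hfr1-101 HRFR replicate 1 or hfr1-101 LRFR 25 h replicate 1 at 0.54 to 0.58) rose and 0 fell.

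ST2A, a sulfotransferase that acts on hydroxylated jasmonate, was at 1.67, 1.099 and 1.15 CPM in HRFR and at 64.2, 52.5 and 67.9 CPM after 25 h (log2FC 5.54 ± 0.27 SE, adjusted p = 9.09e-13). It was the only one of 23 jasmonate genes that rose, and VSP2, a jasmonate-induced storage protein gene, the only one that fell (-1.17, call lost without hfr1-101 HRFR replicate 2 or hfr1-101 LRFR 25 h replicates 1 or 2 at -1.14 to -1.0). Over these 23 the median was 0.01. Of all tested genes 3.35% rose and 3.26% fell. In the salicylate and defence list 1 of 13 fell, the salicylate synthesis gene ICS1 (-0.64, call lost without hfr1-101 HRFR replicate 3 at -0.56).

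**Figure D2:**
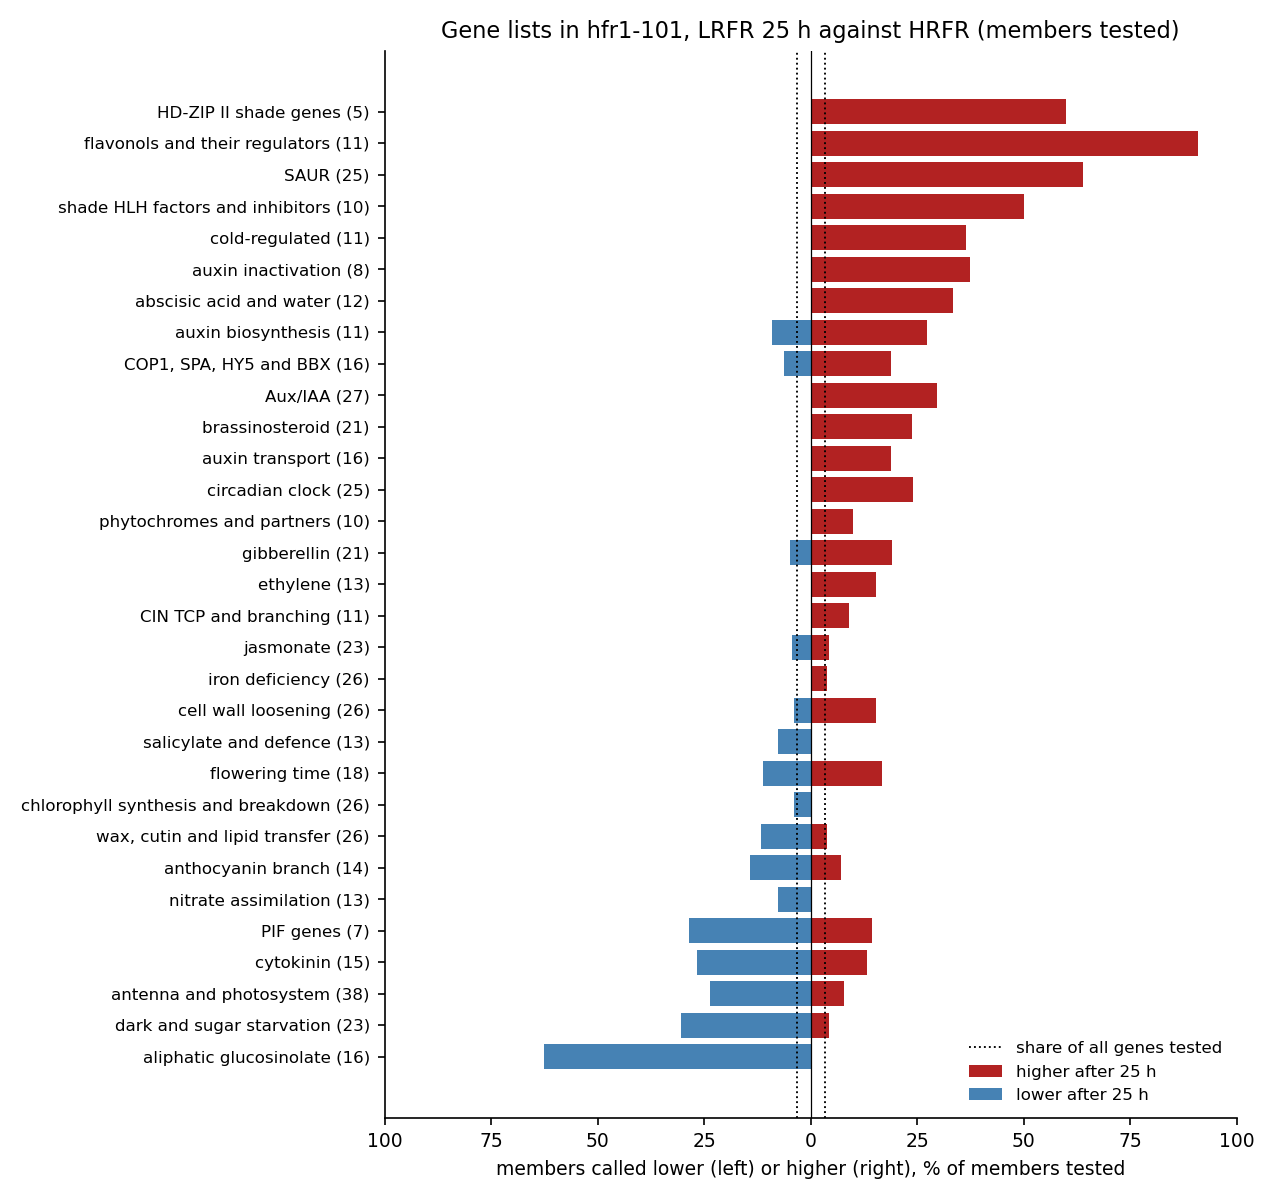
Share of the tested members of each gene list that rose (right) or fell (left) in hfr1-101 after 25 h of LRFR, in percent, with dotted lines at the share over all tested genes (3.35% and 3.26%). Flavonol genes (10 of 11) and SAUR genes (16 of 25) had most of their members up, and aliphatic glucosinolate genes (10 of 16) most of theirs down.

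Flavonol genes rose and aliphatic glucosinolate genes fell. Chalcone synthase TT4, the entry enzyme, was at 362, 424 and 367 CPM in HRFR and at 1415, 1284 and 1039 CPM after 25 h (log2FC 1.7 ± 0.15 SE, adjusted p = 2.22e-08). FLS1, the flavonol synthase, was at 49.4, 56.9 and 49.2 and 220.1, 202 and 158 CPM (log2FC 1.9 ± 0.17 SE, adjusted p = 2.41e-08), again with no overlap. In all, 10 of 11 genes of the list rose and 0 fell (median 1.28), among them TT7 (1.65), CHIL (1.45), TT5 (1.28), F3H (1.26), the glycosyltransferases UGT78D1 (0.8) and UGT78D2 (0.92), and the regulators MYB111 (1.25) and MYB11, which was weakly expressed (0.834 CPM after 25 h, log2FC 3.02). MYB12 did not pass (log2FC 0.27). The anthocyanin branch did not move with them: of 14 genes, TT19 rose (0.96) and the repressor MYBL2 (-1.98) and DFR, the first dedicated enzyme (-0.66, call lost without hfr1-101 HRFR replicates 2 or 3 or hfr1-101 LRFR 25 h replicates 1, 2 or 3 at -0.73 to -0.51), fell.

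Aliphatic glucosinolates are methionine-derived defence compounds. BCAT4, which starts the elongation of methionine chains, was at 24.9, 27.6 and 20.2 CPM in HRFR and 6.82, 9.34 and 6.06 CPM after 25 h (log2FC -1.71 ± 0.23 SE, adjusted p = 7.57e-06), with no overlap. Of 16 genes of the pathway 10 fell and 0 rose (median -0.90). The fall took in the chain-elongation genes MAM1 (-1.33), MAM3 (-1.08), IPMI1 (-0.9), IPMI2 (-1.14) and IMD1 (-0.91), the transporter BAT5 (-0.88), CYP79F1 (-1.22) and the regulators MYB29 (-1.24) and MYB76 (-1.37, call lost without hfr1-101 HRFR replicates 1, 2 or 3 or hfr1-101 LRFR 25 h replicates 1 or 3 at -1.5 to -1.11). MYB28, the other main regulator, had log2FC 0.07 (adjusted p = 0.825).

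**Figure D3:**
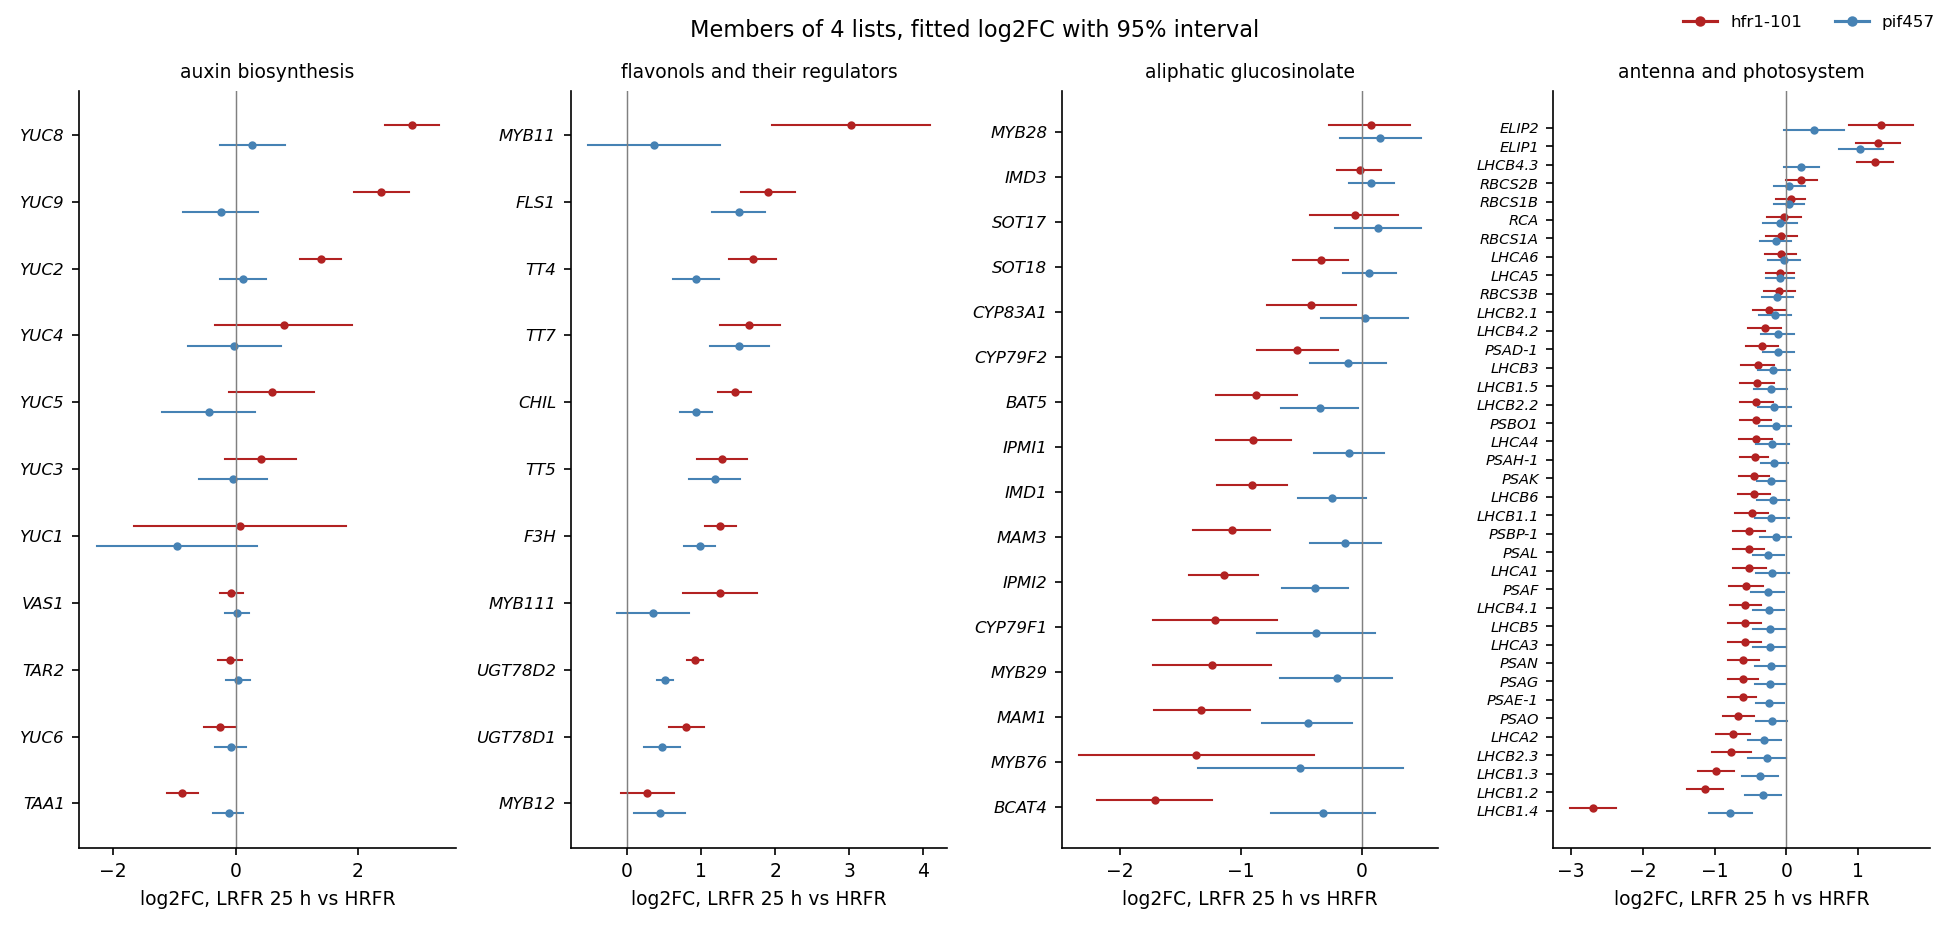
log2FC of every tested member of 4 gene lists after 25 h of LRFR in hfr1-101 (red) and pif457 (blue), with 95% intervals. In hfr1-101 YUC8 lay at 2.88 and TAA1 at -0.87 in the auxin synthesis list, and LHCB1.4 at -2.69 in the antenna list.

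Among genes of the photosynthetic antenna and photosystems, decreases outnumbered increases. LHCB1.4 was at 3079.5, 2799 and 3421 CPM in HRFR and at 449, 476 and 511 CPM after 25 h, a clear separation (log2FC -2.69 ± 0.15 SE, adjusted p = 1.44e-11). Of 38 genes tested, 9 fell and 3 rose, with a median of -0.45, and their summed level was 178800 to 199200 CPM in HRFR and 136000 to 145600 CPM after 25 h. LHCB1.2 (-1.13), LHCB1.3 (-0.98), LHCB2.3 (-0.77) and LHCA2 (-0.74) were among those that fell. LHCB1.2 and LHCB1.3 have near-identical copies, so their individual values are uncertain. LHCB4.3 (1.23) and the early light-inducible protein genes ELIP1 (1.28) and ELIP2 (1.32) were the 3 that rose. Of 26 genes of chlorophyll synthesis and breakdown only PORB, which reduces protochlorophyllide in light, passed, and it fell (-1.24). That count is near the 3.26% of all tested genes that fell. In seedlings taken whole, fewer cells of a type and less RNA per cell cannot be told apart. The 14 mesophyll and cotyledon markers had 0 up and 0 down with a median of 0.06, and their summed level was 61910 to 69310 CPM in HRFR and 61100 to 64570 CPM after 25 h. LHCB2.1, LHCB3, RBCS1A and RBCS3B are members of both this marker list and the antenna list, so the 2 lists are not separate measures.

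Genes known to rise in darkness and sugar starvation fell more often than they rose after 25 h: 7 of 23 fell and 1 rose (median -0.46). ASN1 (-1.22, call lost without hfr1-101 HRFR replicates 2 or 3 or hfr1-101 LRFR 25 h replicates 1 or 3 at -1.2 to -0.96), DIN10 (-1.08), BCAT2 (-0.89, call lost without hfr1-101 HRFR replicates 1 or 3 or hfr1-101 LRFR 25 h replicates 1 or 3 at -0.9 to -0.67) and TPS8 (-0.84) fell most, and PPDK rose (0.69). NIA1, a nitrate reductase, fell (-0.9) as the only one of 13 nitrate assimilation genes, beside 3.26% of all tested genes.

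FLOWERING LOCUS T (FT), whose protein moves to the shoot apex and triggers flowering, was nearly silent in HRFR at 0.243, 0.167 and 0.0718 CPM and stood at 9.46, 12.7 and 11.8 CPM after 25 h (log2FC 6.06 ± 0.59 SE, adjusted p = 6.6e-08). Its close relative TSF rose as well (3.23, at a mean of 0.447 CPM), and FLP1, a flowering-promoting factor, went from 0.517, 0.233 and 0.323 CPM to 38.01, 35.6 and 38.3 CPM (log2FC 6.67 ± 0.25 SE, adjusted p = 4.51e-15). None of these 3 overlapped between the lights. TEM2, a repressor of FT, fell (-0.95), as did SPL4 (-1.23, call lost without hfr1-101 HRFR replicate 1 at -0.95), so that 3 of 18 flowering genes rose and 2 fell (median -0.08). CONSTANS (CO), the activator of FT in long days, had means of 0.503 and 1.09 CPM at this time of day (adjusted p = 0.0947).

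Of 25 clock genes 6 rose and 0 fell (median 0.17): BOA (1.41), RVE4 (1.23), RVE2 (1.14), PRR3 (0.94, call lost without hfr1-101 HRFR replicates 2 or 3 or hfr1-101 LRFR 25 h replicate 1 at 0.45 to 0.9), LHY (0.78) and ELF4 (0.77). CCA1, the partner of LHY, had log2FC 0.07 (adjusted p = 0.577). Of 11 cold-regulated genes COR15B (2.73), COR15A (2.1), KIN1 (1.22) and KIN2 (0.89) rose and 0 fell. Of 26 genes of cell wall loosening EXPA8 (0.97), XTH15 (0.88), XTH17 (0.71) and EXPA3 (0.62, call lost without hfr1-101 HRFR replicate 3 or hfr1-101 LRFR 25 h replicate 2 at 0.54 to 0.59) rose and XTH22, a touch-responsive xyloglucan enzyme, fell (-1.12). Among 26 genes of wax, cutin and lipid transfer LTP2 rose (0.66, call lost without hfr1-101 LRFR 25 h replicate 2 at 0.53) and SHN2 (-1.06, call lost without hfr1-101 HRFR replicates 2 or 3 or hfr1-101 LRFR 25 h replicates 1, 2 or 3 at -1.18 to -0.94), MYB30 (-0.73) and LTP5 (-0.63, call lost without hfr1-101 HRFR replicate 3 at -0.52) fell. NAS3 was the only one of 26 iron-deficiency genes to pass (0.83, call lost without hfr1-101 HRFR replicates 2 or 3 or hfr1-101 LRFR 25 h replicates 2 or 3 at 0.6 to 0.86) and BRC2 the only one of 11 TCP and branching genes (1.9, call lost without hfr1-101 HRFR replicates 2 or 3 or hfr1-101 LRFR 25 h replicates 1, 2 or 3 at 1.63 to 1.95). Over all tested genes 3.35% rose and 3.26% fell, so a single call in a list of 26 is near the general share.

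The largest increases outside these lists were in genes with little or no read in HRFR. CYP96A5, a cytochrome P450, had 0 reads in the 3 HRFR libraries and 2.64, 3.15 and 2.35 CPM after 25 h, at least 82.0-fold higher than a floor of 3 counts over the 3 HRFR libraries (0.0331 CPM). FLA5, a fasciclin-like arabinogalactan protein gene, also had 0 reads in HRFR and 2.01, 1.89 and 1.304 CPM after 25 h, at least 52.5-fold higher by the same floor. AT3G21320, annotated as an early flowering protein, was at 0, 0.0999 and 0 CPM and 4.32, 3.08 and 4.46 CPM, a total of 3 counts in the HRFR libraries. All 3 thus went from the limit of detection to a low level. AT5G44440, of the berberine bridge enzyme family, rose from a mean of 0.159 to 12.3 CPM (log2FC 6.28), and AT3G21330, a bHLH gene, from 0.955 to 16.2 CPM (log2FC 4.09).

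Among the deepest decreases, AT3G06655, a non-coding RNA, was at 1.64, 2.16 and 1.94 CPM in HRFR and at 0.198, 0.0331 and 0.02899 CPM after 25 h (log2FC -4.43 ± 0.43 SE, adjusted p = 5.24e-08). AT4G36850, of the PQ-loop transporter family, fell from 59.6, 55.8 and 71.1 CPM to 8.18, 10.1 and 10.5 CPM (log2FC -2.69 ± 0.2 SE, adjusted p = 1.61e-09). Neither overlapped between the lights. The others were AT1G14250 (-2.72), AT1G77960 (-2.58), AT1G11070 (-2.56), RL6 (-2.43), GDPD6 (-2.41), MEE3 (-2.36), UMAMIT36 (-2.35), AT1G70820 (-2.35) and TBL15 (-2.28), which had means of 1.03 to 33.1 CPM in HRFR. RL6 and MEE3 encode MYB-type factors of the RADIALIS-like kind.

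**Figure D4:**
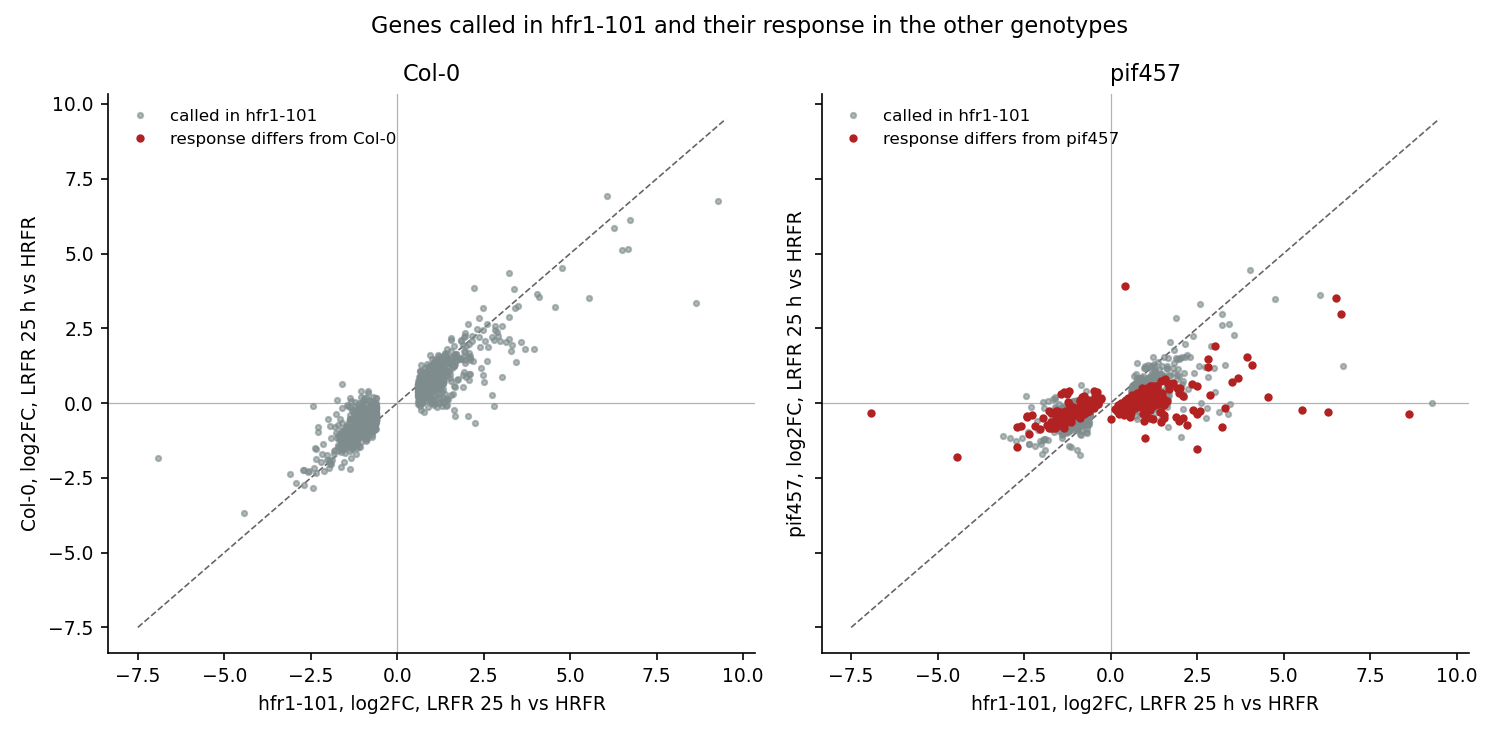
log2FC after 25 h of LRFR in hfr1-101 (horizontal) against that in Col-0 and in pif457 (vertical), with grey points for genes called in hfr1-101, red points for genes whose response differed between the genotypes and a dashed line at equality. There are 0 red genes against Col-0 and 368 (232 and 136) against pif457.

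The comparison with Col-0 asks whether the response to 25 h of LRFR differed when HFR1 was mutated. No gene did so by the interaction test in edgeR: 0 of 20887 passed at an adjusted p below 0.05 (0.0%), although 1181 had an unadjusted p below 0.05. The median half-width of the 95% interval of this difference was 0.33 on the log2 scale over all genes and 0.52 over the genes called in hfr1-101, which describes the precision of a single gene and is not a limit of detection. DESeq2 called 6 genes with a higher and 1 with a lower response in hfr1-101. Leaving out replicate 1 of both Col-0 groups left the count at 0, leaving out replicate 1 of Col-0 after 25 h alone gave 2 genes, and a fit with the replicate number as a block gave 1. The genes that rose in hfr1-101 had a median log2FC of 0.73 in Col-0 and those that fell a median of -0.59, values that are partly set by choosing the genes on their change in the mutant.

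The DESeq2 calls with a higher response were RTFL18 (2.14 on the log2 scale), ST2A (2.03), AT5G02760 (0.94), AT5G24570 (0.91), AT2G15000 (0.64) and UGT74D1 (0.28), and AT4G02850 had a lower one (-0.69). In edgeR ST2A responded more in hfr1-101 by 2.01 ± 0.43 (SE) on the log2 scale, with a 95% interval of 1.11 to 2.91 (adjusted p = 0.346). Its level after 25 h was 20.2, 11.2 and 10.1 CPM in Col-0 and 64.2, 52.5 and 67.9 CPM in hfr1-101, without overlap. For RTFL18, of a family of small peptides that limit organ growth, the difference was 2.13 ± 0.47 (95% interval 1.15 to 3.11, adjusted p = 0.346). For AT5G02760, a protein phosphatase 2C gene, it was 0.94 ± 0.19 (95% interval 0.55 to 1.33).

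Levels were also compared within 1 light treatment. After 25 h of LRFR 37 genes were higher in hfr1-101 than in Col-0 (0.177% of those tested) and 16 were lower (0.0766%), and in HRFR 12 were higher (0.0575%) and 5 lower (0.0239%). The counts after 25 h depended on the fit, being 9 and 4 when only the groups compared were fitted and 58 and 31 with DESeq2. The comparison in HRFR and that after 25 h share no library. In both lights 10 genes were higher, of the 37 after 25 h and of the 12 in HRFR, and 5 were lower, of the 16 after 25 h and of the 5 in HRFR. Without replicate 1 of both Col-0 groups the counts were 48 and 18 after 25 h and 15 and 8 in HRFR. Without replicate 3 of hfr1-101 after 25 h, 7 genes were lower at 25 h.

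PIL1 was at 15.4, 14.9 and 13.1 CPM in Col-0 and 44.9, 38.1 and 44.6 CPM in hfr1-101 after 25 h, a difference of 1.55 ± 0.16 on the log2 scale (adjusted p = 2.34e-06). ATHB2 was at 46.2, 43.3 and 37.8 and 77.2, 65.9 and 74.1 CPM (difference 0.77 ± 0.1, adjusted p = 8.19e-05). Every hfr1-101 library lay above every Col-0 library for both genes. Other shade and auxin genes at a higher level were ST2A (difference 2.15), IAA29 (1.11), FLP1 (1.2), CKX5 (1.16, call lost without Col-0 LRFR 25 h replicate 3 at 1.08), ATHB4 (0.87), BEE3 (0.89, call lost without hfr1-101 LRFR 25 h replicates 2 or 3 or Col-0 LRFR 25 h replicates 1, 2 or 3 at 0.68 to 0.92), SAUR22 (0.62, call lost without hfr1-101 LRFR 25 h replicates 1 or 3 or Col-0 LRFR 25 h replicates 2 or 3 at 0.53 to 0.61) and XTH15 (0.63, call lost without hfr1-101 LRFR 25 h replicates 1 or 2 or Col-0 LRFR 25 h replicates 2 or 3 at 0.48 to 0.61), while PHYA, which encodes the light-labile phytochrome, differed by 0.34, call lost without Col-0 LRFR 25 h replicates 2 or 3 at 0.26 to 0.32. Lower in hfr1-101 were the cytokinin response regulators ARR4 (-0.36, call lost without hfr1-101 LRFR 25 h replicates 2 or 3 or Col-0 LRFR 25 h replicates 1 or 3 at -0.35 to -0.31), ARR6 (-0.54, call lost without hfr1-101 LRFR 25 h replicates 2 or 3 or Col-0 LRFR 25 h replicates 1 or 3 at -0.58 to -0.43) and ARR7 (-0.57, call lost without hfr1-101 LRFR 25 h replicates 2 or 3 or Col-0 LRFR 25 h replicate 1 at -0.6 to -0.49) and the glucosinolate genes IPMI1 (-0.87, call lost without hfr1-101 LRFR 25 h replicate 3 at -0.75), MAM3 (-0.79, call lost without hfr1-101 LRFR 25 h replicates 2 or 3 or Col-0 LRFR 25 h replicates 1 or 3 at -0.82 to -0.7) and IPMI2 (-0.65, call lost without hfr1-101 LRFR 25 h replicates 1 or 3 or Col-0 LRFR 25 h replicates 1 or 2 at -0.66 to -0.55). None of these genes passed in HRFR, and for none did the edgeR interaction between genotype and light pass. HFR1 did not pass after 25 h (difference 0.57, adjusted p = 0.115).

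Against pif457 the response differed at many genes. It was higher in hfr1-101 at 232 genes (1.11% of those tested) and lower at 136 (0.651%). Higher and lower are signed here, so a deeper fall counts as lower. Of the 232 genes, 174 rose in hfr1-101 and 0 fell. Of the 136 genes, 111 fell in hfr1-101 and 0 rose. These counts share the hfr1-101 libraries with the test of the difference. The 700 genes that rose in hfr1-101 had a median log2FC of 0.33 in pif457. The 681 that fell had a median of -0.34, and these medians are again partly set by the choice of the genes. Fitting only the groups compared gave 680 and 393, and DESeq2 gave 392 and 183. The lower count depended on single libraries, being 90 without hfr1-101 HRFR replicate 3, 88 without pif457 HRFR replicate 2 and 75 without pif457 LRFR 25 h replicate 3.

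ST2A was at 1.44, 1.38 and 1.27 CPM in HRFR and 0.962, 1.12 and 1.42 CPM after 25 h in pif457, and its response was higher in hfr1-101 by 5.75 ± 0.48 on the log2 scale (adjusted p = 2.31e-07). CKX5 was at 0.979, 1.61 and 1.63 and 2.07, 1.54 and 1.32 CPM in pif457 (difference in response 4.33 ± 0.43, adjusted p = 2.95e-06). Both genes thus stayed near their HRFR level without PIF4, PIF5 and PIF7. Of the auxin synthesis genes YUC8 (difference 2.61), YUC9 (2.63) and YUC2 (1.27) had a higher response in hfr1-101. TAA1, which fell in hfr1-101, had a lower, more negative response there (-0.75, call lost without hfr1-101 HRFR replicate 3, hfr1-101 LRFR 25 h replicate 1 or pif457 LRFR 25 h replicate 2 at -0.71 to -0.66). Higher responses in hfr1-101 were also those of GH3.5 (1.15) and GH3.6 (1.1), HAT2 (1.54), ATHB2 (1.13), ATHB4 (1.42), IAA1 (1.55), BEE1 (1.91) and PHYB (0.7).

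Some of the strongest shade genes still rose in pif457. HFR1 had a log2FC of 2.63 ± 0.19 there (difference from hfr1-101 0.78, 95% interval 0.26 to 1.31, adjusted p = 0.144), at a mean of 16.1 CPM after 25 h. IAA29 rose from 0.359, 0.262 and 0.363 to 3.59, 3.93 and 3.45 CPM (log2FC 3.47), and PIL1 from a mean of 0.2603 to 3.003 CPM. The response of PIL1 was nevertheless higher in hfr1-101 by the interaction test, a call lost with 1 library left out at 2.79. Of the 11 genes of the flavonol list 6 rose in pif457 and 0 fell (median 0.93), among them FLS1 (log2FC 1.51) and TT7 (1.51). In this list 1 gene had a response that differed from hfr1-101, UGT78D2 (0.41). The response was lower in hfr1-101 at ARR6 (-1.05), ARR7 (-1.0) and BCAT4 (-1.39, call lost without hfr1-101 HRFR replicate 2, hfr1-101 LRFR 25 h replicate 3 or pif457 LRFR 25 h replicate 3 at -1.31 to -1.26). LHCB1.4 was at 2331, 2068 and 2404 CPM in HRFR and 1291, 1228 and 1435 CPM after 25 h in pif457 (difference in response -1.91 ± 0.21, adjusted p = 1e-05), and PORB differed by -1.27.

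After 1 h of LRFR the same mutant was sampled at the same time of day. At 25 h 622 genes were higher than at 1 h (2.98% of those tested) and 853 were lower (4.08%). ATHB2 was at 202, 214 and 229 CPM after 1 h and so had come down to a level between HRFR and 1 h by 25 h (25 h against 1 h, log2FC -1.57 ± 0.1 SE, adjusted p = 5.54e-11). HAT2 (log2FC -1.72), ATHB4 (-3.1), YUC9 (-2.36) and IAA19 (-1.79) were lower at 25 h in the same way, and all 5 HD-ZIP II genes tested, 14 of 25 SAUR genes and 8 of 27 Aux/IAA genes were lower than at 1 h.

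HFR1 went the other way, from 107, 122 and 144 CPM at 1 h to a higher level at 25 h (log2FC 0.76 ± 0.14 SE, adjusted p = 0.000319). CKX5 (1.25) and ST2A (1.02) also rose further, whereas PIL1 was at 44.04, 50.1 and 60.9 CPM at 1 h and did not differ beyond the threshold (log2FC -0.28, adjusted p = 0.196). Against 1 h, 9 of 11 flavonol genes were higher and 9 of 16 aliphatic glucosinolate genes and 5 of 38 antenna genes lower. TT4 was at 418, 485 and 422 CPM, BCAT4 at 21.9, 18.23 and 24.3 CPM and LHCB1.4 at 2443, 2697 and 2862 CPM after 1 h, and FT was at 0.294, 0.0367 and 0.518 CPM. None of these 4 genes passed at 1 h against HRFR.

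The study had sorted responsive genes into 7 clusters from Col-0 and pif457 libraries of this series. It also listed PIF7 targets, which were regulated in those libraries and bound by PIF7 in published chromatin immunoprecipitation data from another experiment. These sets are not independent of the light response and are used only to describe hfr1-101. Of 177 tested PIF7 targets marked as rising, 60 rose in hfr1-101 after 25 h and 0 fell (median 0.44), against 137 after 1 h (median 1.03). Their median after 25 h was 0.30 in Col-0 and 0.12 in pif457. Cluster 1, of 274 genes, had 121 up after 25 h (median 0.55) and 244 up after 1 h (median 1.21). Clusters 3 and 4 had most members up after 25 h in hfr1-101 (208 of 287 and 85 of 111, medians 0.85 and 0.93) and medians of 0.01 and 0.07 after 1 h. Clusters 5 and 6 had most members down (119 of 144 and 169 of 194, medians -0.90 and -1.05), with medians of -0.46 and -0.48 in pif457. Cluster 2 had 13 of 33 up (median 0.57), and cluster 7 had 24 of 104 down and 2 up (median -0.29). Of the 1381 genes called in hfr1-101, 637 were in none of these sets, which the study called by its own fit and thresholds. In the fit used here, 388 of the 700 genes that rose in hfr1-101 also rose in Col-0. Of the 681 that fell, 287 also fell in Col-0. The log2FC in Col-0 had the same sign for 680 of the 700 and 660 of the 681.

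**Figure D5:**
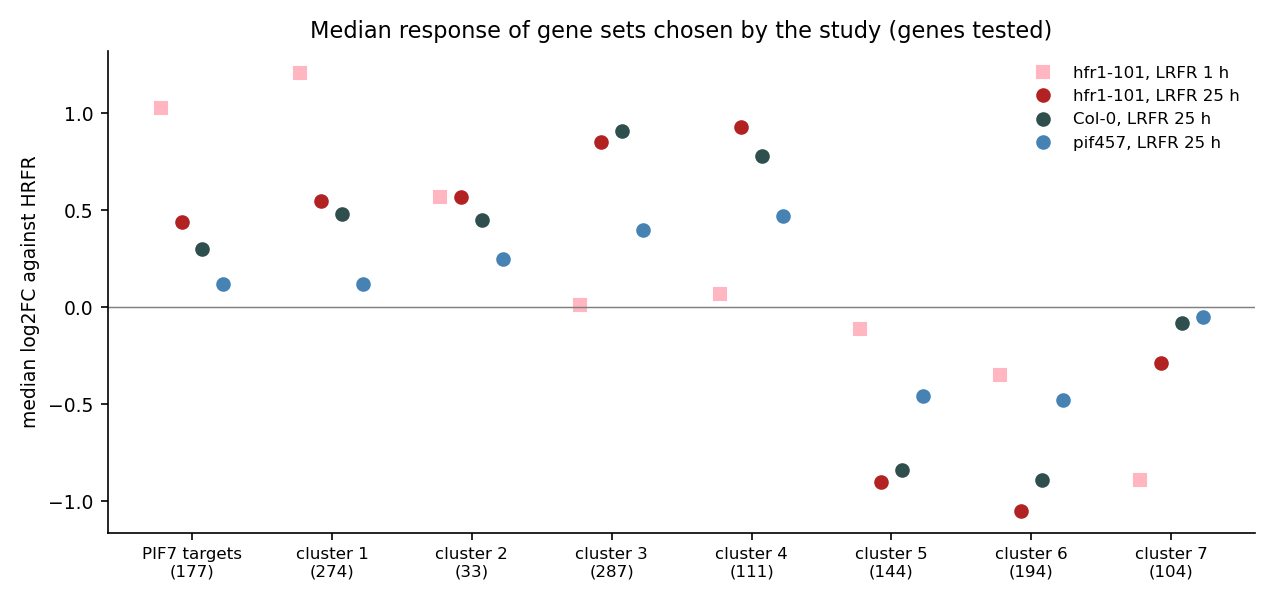
Median log2FC of the PIF7 targets and the 7 clusters in hfr1-101 after 1 h and after 25 h of LRFR and in Col-0 and pif457 after 25 h. PIF7 targets and cluster 1 had their highest hfr1-101 medians at 1 h (1.03 and 1.21), and clusters 3 to 6 had theirs away from 0 at 25 h (0.85, 0.93, -0.90 and -1.05).

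The G-box CACGTG, the PIF-binding element CACATG and, for comparison, the letters GATAAG, an I-box found before light-regulated genes, were counted on both strands in the 1000 bases before the gene start of 20324 tested protein-coding genes. CACGTG and CACATG cannot overlap each other on either strand, and GATAAG can share 1 end base with them. The share of all genes with at least 1 match was 15.9% for CACGTG, 38.3% for CACATG and 41.2% for GATAAG. Of the 694 protein-coding genes that rose in hfr1-101, 20.7% had CACGTG and 44.8% CACATG, and of the 666 that fell, 15.0% and 35.7%. GATAAG was present before 39.5% of the genes that rose and 46.8% of those that fell. PIF7 targets had CACGTG at 43.5%. Within 3000 bases CACGTG was found before 33.3% of all genes and 42.4% of those that rose. The 55 genes that rose after 25 h but were lower than after 1 h, a group formed after the values were seen, had CACATG before 72.7% of their starts and CACGTG before 23.6%.

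Markers of cell types and states are read against the 3.35% of all tested genes that rose and the 3.26% that fell. Of 14 stomatal lineage markers 0 rose and 0 fell (median 0.26). A positive log2FC was found for 12 of them, and 5 were wholly higher after 25 h, as were 20.1% of all tested genes. Of 8 guard cell markers KAT1 alone rose (1.15). Of 25 markers of dividing cells RNR2A alone rose (0.82). Root markers had 0 of 21 up or down, and their summed level was 455 to 464 CPM in HRFR and 375 to 469 CPM after 25 h. Of 20 genes of handling, heat and wounding, HSFA2 (1.29) and HSP70 (0.88) rose and XTH22 and TCH3 (-0.89) fell, and their summed level was 265 to 307 CPM in HRFR and 289 to 313 CPM after 25 h. The part of these genes in the other changes was not tested.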

How the data were processed

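RNA was extracted from whole seedlings with the RNeasy Plant Mini kit, and libraries were made with the Illumina Stranded mRNA Prep and sequenced on a NovaSeq. Before deposit, the authors used Cutadapt for adapters, took out ribosomal and low-complexity reads, mapped the rest to the TAIR10 genome by STAR and obtained gene counts by htseq-count. Neither the strand setting nor tool versions were given in the sources used here. The deposited values are raw read counts for 34262 genes in 27 libraries, with no normalization, of which 7723 had no read. The 5 lines that name no gene held 6.15 to 7.09% of the reads of a library and were left out. Library totals of 24857067 to 34863803 reads set the counting precision. RefSeq annotation of TAIR10.1 matched 32548 genes and gave symbols, positions and upstream sequence.

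Counts were filtered with filterByExpr, scaled by TMM and fitted with edgeR 4.0.16 (R 4.3.3) as 9 group means with 18 residual degrees of freedom, and contrasts were tested by the quasi-likelihood F-test with Benjamini-Hochberg adjustment. Light contrasts were called at an adjusted p below 0.05 and an absolute log2FC above 0.6, and interactions and genotype contrasts at an adjusted p below 0.05. SE is the log2FC divided by the square root of F. The code was tested on simulated data. Alternatives were DESeq2 1.42.0, limma-voom (limma 3.58.1), RLE factors, other filters, fits of only the groups compared, a replicate block and each replicate left out. The replicate numbers did not pair the hfr1-101 libraries: deviations from the group means of same-numbered HRFR and LRFR 25 h libraries had r of -0.23, -0.07 and -0.03. In Col-0 they were 0.62, 0.30 and 0.27. Replicate 2 after 25 h with replicate 3 in HRFR had r of 0.31, and replicate 3 with replicate 2 had 0.21. Pairs of a replicate 1 with another number had r of -0.47 to -0.37. The values thus do not show that replicates 2 and 3 of Col-0 were paired by number. The blocked value is printed beside the comparison with Col-0.

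The genes named are HFR1, the 12 genes at either end of the log2FC among those called with no overlap and a mean of 1 CPM or more in the higher group, up to 4 called members per list, defining members, and the ends of the interactions. For the interaction with pif457, the genotype contrasts within 1 light and the DESeq2 calls, and for list members beyond these 4, genes were chosen after their values were seen. The members and lists were chosen with earlier results of these data known.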

Additional observations from a re-analysis of the deposited data

Results flagged for a closer look

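The response to 25 h of LRFR differed between hfr1-101 and pif457 by the edgeR interaction test at 232 genes on the higher and 136 on the lower side. The differences that follow are on the log2 scale, hfr1-101 minus pif457. At the upper end were FLA5 (9.0, call lost without pif457 HRFR replicate 3 at 7.44), AT5G44440 (6.58, call lost without pif457 HRFR replicates 1 or 3 at 5.69 to 6.54), ST2A (5.75), CKX5 (4.33), ACS4 (4.04), RTFL13 (4.03), FLP1 (3.68, call lost without pif457 HRFR replicate 1 at 2.94) and AT5G02540 (3.48). FLA5 had 0 reads in hfr1-101 in HRFR, so its fitted difference depends on the prior count and is no bound. At the lower end were AT3G06655 (-2.64, call lost without hfr1-101 HRFR replicate 2, hfr1-101 LRFR 25 h replicates 2 or 3, pif457 HRFR replicates 1 or 2 or pif457 LRFR 25 h replicates 2 or 3 at -2.66 to -2.11), GDPD6 (-1.99), RL6 (-1.94, call lost without hfr1-101 HRFR replicates 1 or 2, hfr1-101 LRFR 25 h replicates 1, 2 or 3, pif457 HRFR replicates 1 or 2 or pif457 LRFR 25 h replicates 1, 2 or 3 at -2.1 to -1.73), LHCB1.4 (-1.91), TBL15 (-1.89, call lost without hfr1-101 HRFR replicates 1, 2 or 3, hfr1-101 LRFR 25 h replicates 1 or 2, pif457 HRFR replicate 2 or pif457 LRFR 25 h replicate 3 at -1.9 to -1.55), AT1G77960 (-1.81), AT5G61280 (-1.75) and BGLU47 (-1.73, call lost without hfr1-101 HRFR replicates 2 or 3, hfr1-101 LRFR 25 h replicates 1, 2 or 3, pif457 HRFR replicates 1, 2 or 3 or pif457 LRFR 25 h replicates 1 or 3 at -1.84 to -1.49).

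AT5G44440 was at 0.03699, 0.0605 and 0.0616 CPM after 25 h in pif457 and at 14.8, 11.95 and 10.3 CPM in hfr1-101, and AT5G02540, of the NAD(P)-binding Rossmann-fold family, at 2.89, 3.27 and 4.19 and 52.02, 56.1 and 58.8 CPM. ACS4 had means of 1.37 CPM in HRFR and 0.47 CPM after 25 h in pif457, a log2FC of -1.55 that had an adjusted p of 0.0485. LHCB1.4 started from a mean of 3099.6 CPM in hfr1-101 and 2268 CPM in pif457.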

How the results depend on the processing

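The count of genes that changed in hfr1-101 after 25 h was 731 and 678 with DESeq2 (higher and lower), 626 to 686 and 553 to 743 with 1 replicate left out, and 2264 and 1839 without the fold threshold. Against 1 h it was 2172 and 2023 without the fold threshold and 521 to 653 and 610 to 992 with 1 replicate left out. For the difference from the Col-0 response (0 and 0), DESeq2 gave 6 and 1, the replicate block 1 higher, and leaving out 1 replicate 0 to 2 higher and 0 lower. For the difference from the pif457 response, DESeq2 gave 392 higher, fitting only the groups compared gave 680 higher and 393 lower, and leaving out 1 replicate 157 to 227 and 75 to 141. The level of hfr1-101 against Col-0 after 25 h gave 58 higher and 31 lower with DESeq2, 9 and 4 with only the groups compared, and 28 to 49 and 7 to 19 with 1 replicate left out. In HRFR DESeq2 gave 8 lower, leaving out replicate 1 of both Col-0 groups 8 lower, and 1 replicate left out 8 to 11 and 5 to 6. The genotype contrasts and the removal of replicate 1 of both Col-0 groups were added after the data were seen. The causes of these shifts were not tested, other than fewer libraries in fits that leave some out.

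With the replicate number as a block, 706 and 701 genes changed after 25 h, and in hfr1-101 the samples share only a number. Over the named genes, the change after 25 h kept its side of the threshold in 2178 of 2255 values, fell short in 76 (of 24 genes) and reversed in 0. A value counts as reversed only where its sign changed and it passed the threshold in the main fit or in the alternative. Counted in this way, no value of a named gene reversed in any comparison. Changes of sign in values that passed in neither fit are not counted. With 3 libraries per group, the median 95% half-width of a difference in response from Col-0 was 0.33.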

Other observations

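Some genes differed between hfr1-101 and Col-0 in both lights. MRD1 was at 19.96, 18.4 and 18.5 CPM in HRFR and 18, 16.7 and 18.7 CPM after 25 h of LRFR in hfr1-101, and at 0.0305, 0.195 and 0.197 and 0, 0.0814 and 0.263 CPM in Col-0. In pif457 it was at 11.4, 12.3 and 13.7 and 13.5, 14.03 and 10.8 CPM. The orphan gene QQS had means of 5.901 and 3.77 CPM in hfr1-101 against 0.8003 and 0.581 CPM in Col-0, and D2HGDH, a mitochondrial dehydrogenase gene, 16.3 and 16.4 against 6.37 and 5.88 CPM.

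Lower in hfr1-101 in both lights were AT1G64795 (means of 0.251 and 0.152 CPM, against 17.1 and 15.4 CPM in Col-0), AT1G75945 (0.0904 and 0.276 against 6.86 and 5.87 CPM), AT3G05170 (0.12 and 0.245 against 5.02 and 5.25 CPM) and AT3G26115 (0.385 and 0.409 against 3.74 and 2.94 CPM). These genes were chosen after their values were seen.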
